A study of Mus musculus with 12 samples.

Results

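The B7 and CD28 families are pairs of membrane proteins through which antigen-presenting cells, tumour cells and T cells exchange signals that raise or lower T cell activation. The 9 genes described here encode 4 receptors and 5 ligands and were listed by name as members of these families, and not picked by a threshold on their values. The receptor genes are Pdcd1 (PD-1), Ctla4 (CTLA-4), Cd28 and Icos, and the ligand genes are Cd274 (PD-L1), Pdcd1lg2 (PD-L2), Cd80 (B7-1), Cd86 (B7-2) and Icosl (ICOS ligand). All 9 were found in all 12 libraries, whose tables hold 19369 genes (Total) and 18574 genes (CD45). They were followed across the cell classes of the authors' annotation, with ligand-bearing cells set against receptor-bearing cells in each tumour.

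The study grew tumours from 4T1, a mouse triple-negative mammary carcinoma line, in the mammary fat pad of female BALB/c mice, an immunocompetent host of the same strain, aged 9 to 11 weeks. There were 6 groups with 1 tumour each: Clone E, Clone EM1, Clone EM2, Clone EM3 and Clone M, each derived from a single cell of the line, and Parental 4T1. The clones are described as covering epithelial, intermediate and mesenchymal states, with no state written for a given clone, so the clone names are used as they stand. No group received a treatment or carried an engineered allele, and each clone is 1 clone grown as 1 tumour, so that the clone and the single tumour cannot be told apart. From each tumour, 1 library was made of all cells after digestion (Total) and 1 of leukocytes enriched with magnetic beads (CD45). The comparison of clones asks how the state of the tumour cells goes with the immune cells around them.

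PD-1 on T cells is bound by PD-L1 and PD-L2 and lowers signalling from the T cell receptor. CD28 and CTLA-4 share the ligands CD80 and CD86; CD28 delivers a costimulatory signal, whereas CTLA-4 binds the same ligands more strongly and is abundant in Foxp3+ regulatory T cells. ICOS is a later costimulatory receptor with a ligand of its own, best known from B cells. In tumours, PD-L1 is carried by myeloid cells as well as by tumour cells, and its gene is induced by interferon-gamma.

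The CD45 libraries held 6791 to 11024 cells and 28083101 to 57116299 UMIs (unique molecular identifiers, each marking 1 RNA molecule), and the Total libraries 6709 to 13467 cells and 38499899 to 122055131 UMIs. For each class and library, the UMIs of a gene were added up and divided by all UMIs of the same cells, as CPM, the usual scaling to a fixed library total. Levels of classes with fewer than 20 cells in a library were not described, but such classes entered the shares of UMIs and the correlations over tumours. Intervals are exact 95% Poisson or Clopper-Pearson intervals and cover counting error only. With 1 tumour per group, no test was made between tumours, and "higher" and "lower" below describe these 6 tumours. The 12 libraries fall into 4 sets by the 16-base droplet barcodes that they share. The 4 libraries of the E and EM3 tumours shared 1345 to 1760 barcodes per pair, the 4 of EM1 and EM2 818 to 1332, the 2 of M 1450 and the 2 of the parental tumour 1112, against 46 to 211 in the other 52 pairs. E against EM3 and EM1 against EM2 are therefore comparisons within a set, whereas in E against M the set and the clone cannot be told apart. In the broad annotation of the CD45 libraries, markers of T, B, NK and dendritic cells and of granulocytes were highest in their own class in 6 of 6 libraries. In the Total libraries all dendritic markers were so in 4 of 6, with Flt3 higher in B cells in EM3 and Flt3 and Cd209a in M. Among subtypes, the summed dendritic markers of Cd44- Cd4+ T cells, 3 or more of them at 0 in every tumour but EM2, were above those of dendritic cells in E (2517 against 2505 CPM) and EM1 (3196 against 2898 CPM). Of 6 macrophage markers, all were highest in macrophages in 0 of 6 CD45 libraries, since the class called Other Myeloid was higher in some, and in 6 of 6 Total libraries. Values are listed below in the order E, EM1, EM2, EM3, M and parental.

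The 9 genes lie on 4 chromosomes of the mouse genome (GRCm38). Cd28 (chr1:60716800-60773359), Ctla4 (chr1:60887000-60915832) and Icos (chr1:60977927-61000320) are neighbours on the plus strand, and Pdcd1 (chr1:94038305-94052553, minus strand) is on the same chromosome. Cd274 (chr19:29367455-29388095) and Pdcd1lg2 (chr19:29410919-29471161) are neighbours on the plus strand of chromosome 19. Cd80 (chr16:38455561-38496335, plus) and Cd86 (chr16:36603869-36666081, minus) share chromosome 16, and Icosl (chr10:78069302-78083913, plus) stands alone.

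Cd274 and Pdcd1lg2 carried the largest differences between tumours among these genes in macrophages, so the 250 bases upstream of both genes are shown, from RefSeq on GRCm38.p6. They were searched on both strands for GAAA, any 2 bases and GAAA, a pattern bound by interferon regulatory factors, and for TTC and GAA with any 3 or any 4 bases between them. The capitals mark the single match, a TTC and GAA with 4 bases between in the Pdcd1lg2 window at base 169 of 250, a pattern that matches on both strands at once.

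Cd274, chr19:29367188-29367437, plus strand: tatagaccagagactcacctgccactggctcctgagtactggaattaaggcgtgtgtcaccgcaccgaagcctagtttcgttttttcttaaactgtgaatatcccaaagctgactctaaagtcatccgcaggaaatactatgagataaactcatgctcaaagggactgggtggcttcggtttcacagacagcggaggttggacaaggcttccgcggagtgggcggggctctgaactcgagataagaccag

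Pdcd1lg2, chr19:29410669-29410918, plus strand: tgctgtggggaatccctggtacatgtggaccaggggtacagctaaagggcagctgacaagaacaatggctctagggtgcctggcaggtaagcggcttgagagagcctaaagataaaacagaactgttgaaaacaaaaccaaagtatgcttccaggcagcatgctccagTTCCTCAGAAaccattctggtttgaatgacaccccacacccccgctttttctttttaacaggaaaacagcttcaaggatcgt

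Of 32851 mouse promoter windows of the same length, 2.98% held the first pattern, 7.02% the TTC and GAA pattern with 3 bases between and 5.85% that with 4. The match describes the letters of the window, and the lack of one in Cd274 says only that these letters are not in these 250 bases.

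PD-L2, a ligand of PD-1 typical of dendritic cells and alternatively activated macrophages, was the most variable of the ligand genes in macrophages. In macrophages of the CD45 libraries, Pdcd1lg2 was at 194, 85.9, 37.2, 115, 6.75 and 13.8 CPM. The E tumour was highest (interval 189 to 198.5) and the M tumour lowest (interval 5.65 to 8.01), and the intervals of the 6 tumours did not overlap. The highest level was 28.7 times the lowest, and 99.9% of the genes with a mean of at least 10 CPM in macrophages had a smaller ratio on CPM + 10. On the log2 scale of CPM + 10, which understates the change of low values, M differed from E by -3.60 (95% interval -3.71 to -3.49). Within a barcode set, EM3 differed from E by -0.71 (95% interval -0.76 to -0.66) and EM2 from EM1 by -1.02 (95% interval -1.12 to -0.92).

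A Pdcd1lg2 UMI was found in 35.2, 21.4, 10.8, 28.6, 2.75 and 5.74% of macrophages, and in 12.6, 6.71, 3.16, 8.53, 0.800 and 1.18% after each cell had been thinned to 1000 UMIs. The order of the tumours was the same in both. In Foxp3+ Cd4+ T cells, taken here as the background class, the share was 4.62, 0.474, 0.948, 3.03, 1.02 and 2.15% at median depths of 1495, 987, 1038, 1584, 1150.5 and 1240.0 UMIs, against 6001, 5444, 5118.5, 7553, 7675.5 and 6374.5 in macrophages. The M macrophages, the deepest of the 6, thus had the smallest share. The background class was at 25.3, 3.84, 7.36, 18.1, 7.53 and 15.3 CPM, from 1 to 12 UMIs each, so that the M and parental macrophage levels were not above it on CPM. These T cells were shallower, and other classes were lower. Granulocytes of M, at a median of 988 UMIs, were at 2.30 CPM against 6.75 in its macrophages. In the Total libraries, tumour cells of M and the parental tumour, given below, were also lower than macrophages. Whether the lower end of the 28.7-fold range is at background was not tested. The Other Myeloid class followed the tumour order of the macrophages, with Pdcd1lg2 at 125, 37.3, 13.5, 58.7, 1.99 and 2.06 CPM. The value in M rests on 3 UMIs, and the M and parental intervals overlapped. Granulocytes differed between tumours too, at lower levels, from 32.0 CPM in E on 108 UMIs to 2.30 CPM in M on 10 UMIs. Of the genes with a mean of at least 10 CPM in granulocytes, 98.7% had a smaller ratio on CPM + 10.

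Dendritic cells, which prime naive T cells, did not share this spread. Their Pdcd1lg2 level was 606, 429, 459, 624, 395 and 489 CPM, a range of 1.58-fold, close to the 1.54-fold median of all genes in these cells. M differed from E in dendritic cells by -0.61 (95% interval -0.82 to -0.40), and EM2 from EM1 by 0.10 (95% interval -0.08 to 0.28). Summed macrophage markers in the dendritic cell class were 3421 CPM in E and 1005.5 CPM in M. Their part in the M to E difference was not tested. The summed CPM of 6 dendritic cell markers in the macrophage class was 51.2, 47.1, 37.5, 30.1, 30.2 and 45.2, a range of less than 2-fold. Without macrophages that held a UMI of any of these markers, the M to E difference of Pdcd1lg2 was -3.62 log2 units. With 55 to 168 dendritic cells against 1208 to 3923 macrophages per Total library, the class that held most Pdcd1lg2 UMIs still changed between tumours. In the Total libraries macrophages held 78.8, 67.4, 56.7, 80.8, 31.6 and 62.9% of all Pdcd1lg2 UMIs and dendritic cells 15.5, 28.6, 39.2, 15.8, 52.7 and 23.2%. The M tumour was the only one of 6 in which dendritic cells held the larger share.

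PD-L1 was carried more widely. Cd274 in macrophages was at 553, 289.6, 294, 393, 108 and 171.5 CPM, highest in E (interval 545 to 561) and lowest in M (interval 104 to 113), with EM1 and EM2 overlapping. The M to E difference was -2.25 (95% interval -2.31 to -2.19) on the log2 scale. Within the sets, EM3 differed from E by -0.48 (95% interval -0.51 to -0.45) and EM2 from EM1 by 0.02 (95% interval -0.03 to 0.07), so that the 2-fold gap in Pdcd1lg2 between EM2 and EM1 had no counterpart in Cd274. A UMI of Cd274 was present in 87.1, 66.2, 65.1, 81.9, 43.8 and 53.5% of macrophages, and in 41.1, 24.7, 25.1, 31.8, 11.2 and 16.3% after thinning. Markers of granulocytes, which carry Cd274 themselves, summed to 989.9, 591, 566, 1390.0, 863 and 619 CPM in the macrophage class; their part in the result was not tested.

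Granulocytes, short-lived phagocytes that are abundant in 4T1 tumours, had a Cd274 level of 704.6, 595, 335, 513, 303 and 283 CPM. E and EM1 were highest here, and M, EM2 and the parental tumour lowest. M differed from E by -1.19 (95% interval -1.29 to -1.10) log2 units and EM2 from EM1 by -0.81 (95% interval -0.99 to -0.63), so granulocytes separated the EM1 and EM2 tumours where macrophages did not. In dendritic cells, Cd274 was at 623.4, 471, 496, 573, 566 and 507 CPM, a 1.32-fold range, and 18.2% of genes in these cells had a smaller one. The M to E difference in dendritic cells was -0.14 (95% interval -0.32 to 0.04), an interval that includes 0.

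Over the 6 tumours, the median Cd274 level placed dendritic cells first at 537 CPM, granulocytes next at 424 and macrophages at 291.7. The order of these 3 classes differed by tumour, because granulocytes were above dendritic cells in E and EM1 and below them in the other 4. Granulocytes were above macrophages in 6 of 6 CD45 libraries and in 5 of 6 Total libraries, the exception being EM2 at 256 against 273 CPM of Cd274. T cells also carried Cd274 UMIs, at 220.0, 228, 269, 223, 216 and 269 CPM in Lef1+ Cd8+ T cells and 213, 166, 183, 236, 165 and 192 CPM in Cd44+ Cd4+ T cells. In the M and parental tumours both exceeded the macrophage level. Summed macrophage markers in Lef1+ Cd8+ T cells were 1066, 1013, 1187, 1649, 833 and 2004 CPM, against 9140.5, 15709, 14495, 10866, 14253 and 12303 in macrophages, and the part of free RNA in the T cell values was not tested.

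**Figure D1:**
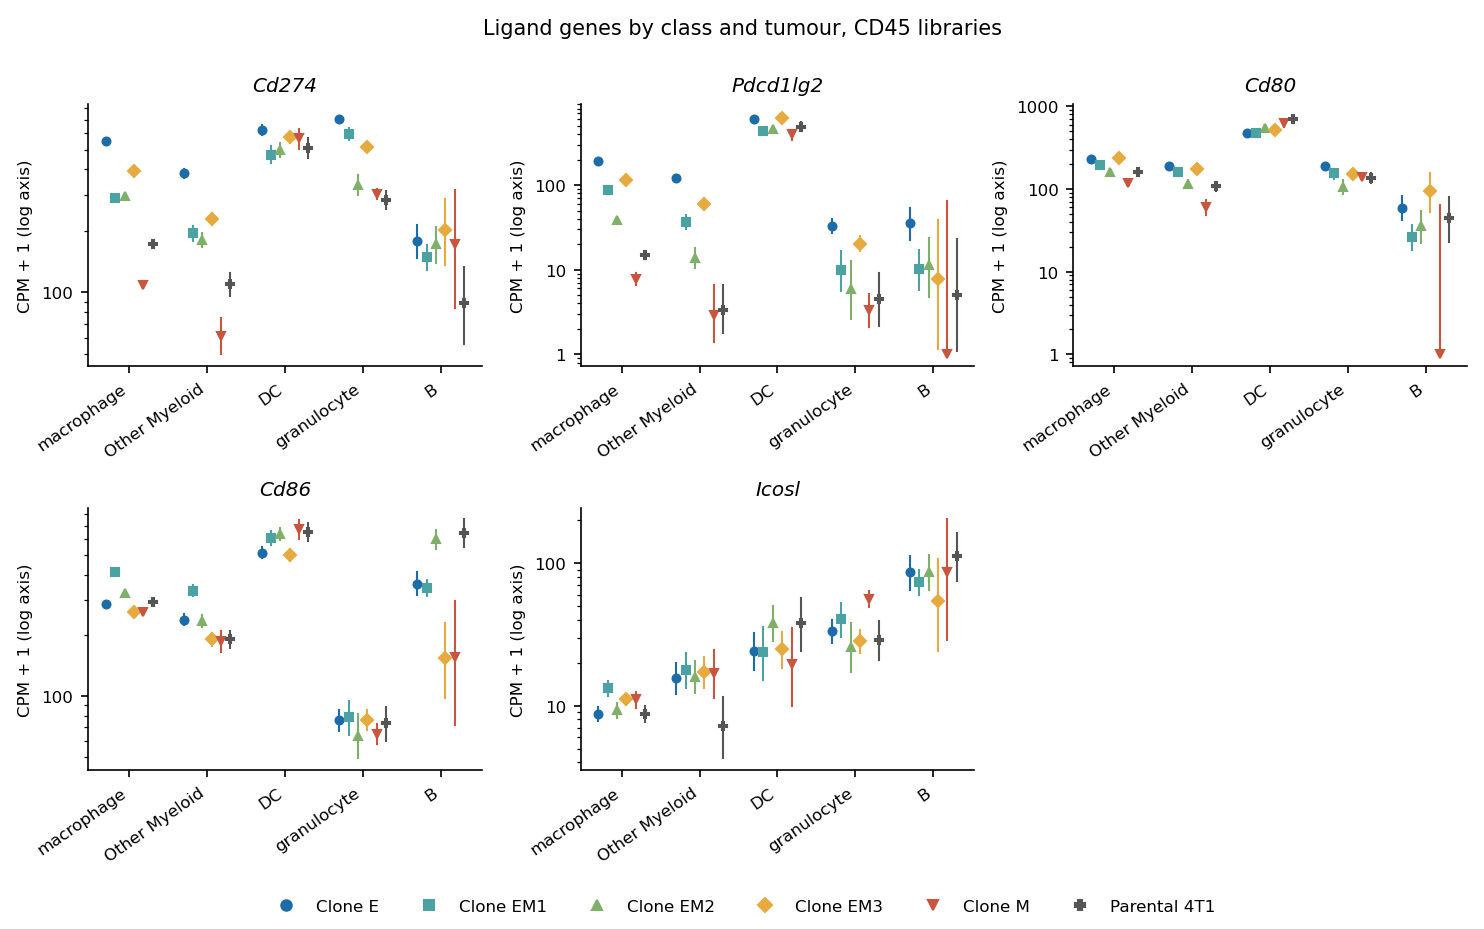
CPM + 1 on a log axis of the 5 ligand genes in 5 classes of the broad annotation of the CD45 libraries; points are tumours, and bars are exact 95% Poisson intervals. Pdcd1lg2 and Cd274 spread widely in macrophages and Other Myeloid cells and lie close together in dendritic cells, and Pdcd1lg2 in macrophages runs from 6.75 to 193.7 CPM. Pdcd1lg2 also spreads in granulocytes, at lower levels, from 2.30 to 32.0 CPM.

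Tumour cells, annotated in the Total libraries only, had a Cd274 level of 53.2, 16.7, 16.4, 16.5, 15.5 and 5.79 CPM. Markers of tumour cells were all highest in this class in 5 of 6 libraries. For Cd274 the E tumour cells were highest, the EM1, EM2, EM3 and M tumour cells overlapped, and the parental cells were lowest. Macrophages of the same libraries were at 567, 294, 273, 313, 101 and 136 CPM, and the log2 ratio of macrophages to tumour cells had a median of 3.32 and a range of 2.12 to 3.61 over the 6 tumours. The ratio was smallest in M, the tumour with the lowest macrophage level.

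The E value rests on the fewest tumour cells, 767, of which 621 also held a UMI of Ptprc, C1qa, C1qb, C1qc, Adgre1, Csf1r or Cd68, genes of leukocytes. The 146 E tumour cells without any such UMI had Cd274 at 36.0 CPM (interval 24.4 to 51.0), and those with one at 56.7 CPM (49.8 to 64.4). In the other 5 tumours the cells without a leukocyte UMI had 16.5, 16, 15.9, 15.7 and 5.12 CPM, close to the values with one. As a measure of macrophage RNA in these cells, C1qa in E tumour cells stood at 3.3% of its macrophage level and Cd274 at 9.39%; in the other tumours C1qa was at 0.267 to 1.47% and Cd274 at 4.26 to 15.4%. The tumour cell share of Cd274 UMIs was 1.69, 14.2, 11.3, 3.36, 16.4 and 13.1%, against 72.5, 60.5, 75.4, 84.4, 45.7 and 74.4% in macrophages and 13.5, 9.69, 2.76, 5.41, 25.7 and 3.74% in granulocytes. Pdcd1lg2 in tumour cells was at 6.05, 0.336, 0.263, 1.12, 0.285 and 0.445 CPM, highest in E. As a percent of the macrophage level these were 3.77, 0.522, 0.933, 1.45, 4.93 and 3.24%, and C1qa stood at 3.3, 0.267, 0.468, 1.47, 0.596 and 0.732% of its own.

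**Figure D2:**
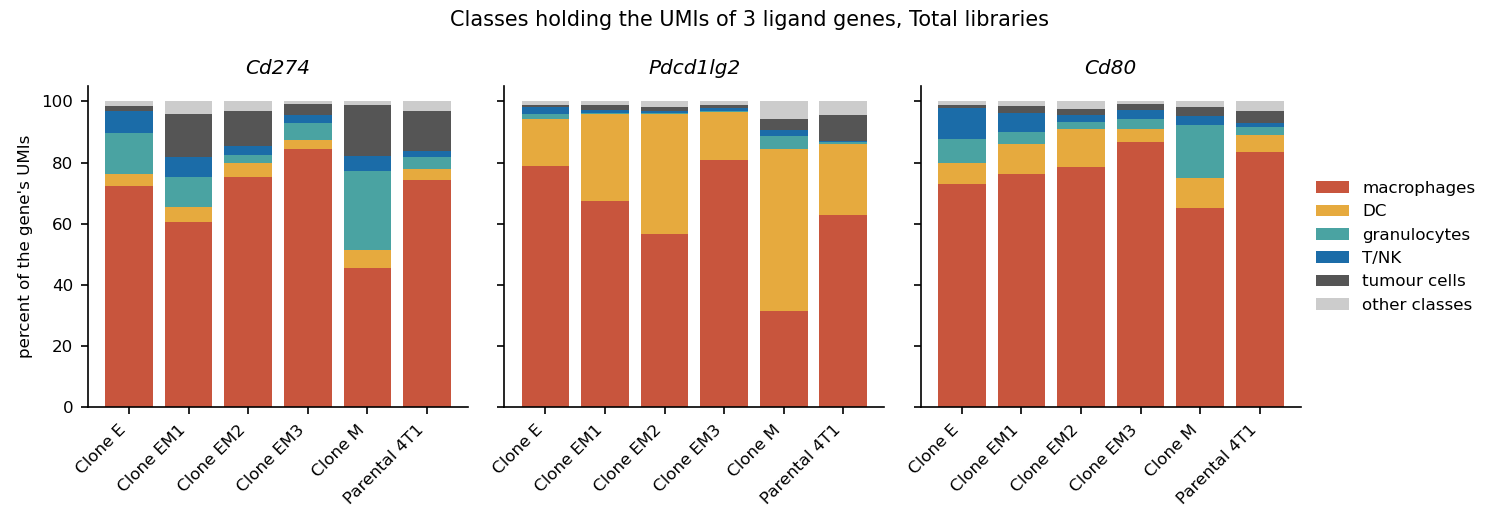
Percent of the UMIs of Cd274, Pdcd1lg2 and Cd80 in the Total libraries that each cell class held, as stacked bars from 0 to 100 for the 6 tumours. Macrophages hold 45.7 to 84.4% of Cd274 UMIs, and dendritic cells hold 52.7% of Pdcd1lg2 UMIs in the M tumour.

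B7-1 and B7-2 are the shared ligands of CD28 and CTLA-4. Cd80 was highest in dendritic cells in 6 of 6 tumours, at 481.5, 469, 549.8, 520.2, 622 and 703 CPM. Macrophages were at 229.9, 194, 159.6, 237, 116 and 160.1 CPM and granulocytes at 187, 153, 105, 151, 138 and 135 CPM, with macrophages above granulocytes in every tumour except M. The M tumour was lowest in macrophages, where it differed from E by -0.93 (95% interval -0.99 to -0.87) log2 units. In dendritic cells the M to E difference was 0.36 (95% interval 0.18 to 0.54). The dendritic cell difference was 0.022 in the Total libraries, so it was not seen in both libraries of the tumours. In the same dendritic cell class, summed macrophage markers were 3421, 6458.6, 3119, 4010.0, 1005.5 and 2095 CPM and summed dendritic markers 2505, 2898, 3693, 2972, 3927 and 4639 CPM, so that M had the fewest macrophage markers and more dendritic markers than E. Their part in the Cd80 difference, and in that of Cd86 below, was not tested.

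Cd86 differed less between tumours. It was at 285, 411.5, 324, 260.4, 259.9 and 291 CPM in macrophages, highest in EM1, and M and EM3 had the same level as far as counting allows. In dendritic cells Cd86 was at 512, 608, 635, 499.5, 668.5 and 650.5 CPM, with M above E by 0.38 (95% interval 0.20 to 0.55); the Total libraries gave 0.15. Its highest level by median was in Cd44-MHCIIhi B cells, a B cell subtype named for low Cd44 and high MHC class II, at 677, 789.9, 759.7, 391 and 689.8 CPM in the 5 tumours other than M, which had 19 such cells. Macrophages nevertheless held 79.3, 77.1, 77.9, 83.1, 83.7 and 85.2% of all Cd86 UMIs of the CD45 libraries.

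T cells also held Cd80 UMIs. In Foxp3+ Cd4+ T cells Cd80 was at 158, 142, 147, 217, 245 and 130.1 CPM, above the Cd44+ Cd4+ T cells at 52.8, 29.4, 41.0, 51.9, 13.9 and 30.8 CPM in 6 of 6 tumours. Macrophage markers summed to 886, 849, 894, 1489, 889 and 1270.6 CPM in the Foxp3+ cells and 947, 1002, 1135, 1553, 609.9 and 1323 CPM in the Cd44+ cells, higher in the Foxp3+ cells in M and lower in the other 5 tumours. Dendritic markers, among them Ccr7, which T cells also carry, summed to 1539, 1894, 2124, 1442, 3024 and 1959 CPM and 1196, 2040.4, 2276, 1095, 1943.5 and 1976 CPM, higher in the Foxp3+ cells in E, EM3 and M. Their part in the Cd80 levels was not tested. In Gzmb+ Cd8+ T cells, a cytotoxic subtype, Cd80 was at 177, 83.1, 53.7, 125 and 28.5 CPM from E to M. The 2 highest values were those of E and EM3, whose libraries share droplet barcodes, and the M value rests on 3 UMIs. A Cd80 UMI was present in 27.6, 9.02, 5.95, 26.0 and 4.76% of these cells, against 9.03, 1.04, 2.17, 9.47, 1.59 and 4.21% of NK cells of the subtype annotation. That NK class, which held more cells than the broad NK class, was at median depths of 2421, 1296, 1502, 2185, 1935 and 2696 UMIs.

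ICOS ligand was highest in B cells. Icosl reached 161, 147, 112, 78.2 and 133 CPM in Cd44-MHCIIhi B cells of the 5 tumours other than M, and 7.74, 12.2, 8.27, 10.1, 10.1 and 7.76 CPM in macrophages. Granulocytes were at 32.3, 39.2, 24.9, 27.3, 55.2 and 28.1 CPM, and here M was the highest tumour, above E by 0.62 (95% interval 0.36 to 0.89) log2 units. Of all Icosl UMIs of the CD45 libraries, macrophages held 48.4, 48.6, 50.1, 61.3, 38.8 and 60.9% and these B cells 8.39, 16.8, 11.7, 0.598, 0.598 and 10.0%. In the M tumour granulocytes held the largest share, 47.8%.

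Turning to the receptors, PD-1 was most abundant in Gzmb+ Cd8+ T cells. Pdcd1 was there at 3941, 3100.2, 3538, 3233 and 2409 CPM from E to M, and the parental tumour had 8 such cells. E was highest and M lowest, with a difference of -0.71 (95% interval -0.89 to -0.53) log2 units over 561 and 63 cells. A UMI was seen in 98.4, 83.7, 84.9, 98.1 and 74.6% of these cells, against 4.03, 2.34, 2.47, 3.91, 1.86 and 1.05% of the deeper macrophages of all 6 tumours. In Lef1+ Cd8+ T cells, a subtype named for a factor of naive and memory-like T cells, Pdcd1 was at 1163, 872, 850.0, 1364, 1017 and 826 CPM, and the M to E difference was -0.19 (95% interval -0.49 to 0.09), an interval that includes 0. The Gzmb+ subtype was above the Lef1+ subtype in 5 of 5 tumours.

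The mix of both subtypes differed between tumours. From E to M, Gzmb+ cells gave 78.3, 86.0, 72.7, 46.5 and 45.8% of the UMIs of the 2 Cd8+ subtypes. Pooled over both subtypes, the log2 ratio of Pdcd1 in M to E was -1.01, and with the mix of E given to every tumour it was -0.66. For EM3 the same step moved the log2 ratio from -0.58 to -0.24, and for EM1 from -0.26 to -0.35. Ctla4 in the pooled cells of M moved from -0.98 to -0.68, and Icos from -0.94 to -0.62. These are arithmetic rearrangements of the same counts, and carry the same counting error.

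Among Cd4+ T cells, Pdcd1 was at 1252, 962, 1330.1, 1446, 1301 and 438 CPM in the Cd44+ subtype and 1370.5, 826, 1645, 1241, 1604 and 1523 CPM in the Foxp3+ subtype, which holds regulatory T cells. Of the 3 regulatory T cell markers, Foxp3, Il2ra and Ikzf2, at least 2 were highest in this subtype in every CD45 library, and all 3 in 2 of 6. In Foxp3+ cells the EM1 tumour was lowest, and EM2 exceeded it by 0.99 (95% interval 0.75 to 1.22) log2 units within the same barcode set. In Cd44+ cells the parental tumour stood apart as the lowest. The Cd44- subtype, with the low Cd44 of resting T cells, had 78.5, 72.2, 136, 87.6, 439.9 and 57.8 CPM. The M value, 25 UMIs in 41 cells, was the highest of the 6, with an M to E difference of 2.35 (95% interval 1.64 to 3.01). In the same 41 cells Cd28 was at 616 CPM against 240.1 in E, and Icos at 633.5 against 322.

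The subtype holding most Pdcd1 UMIs therefore differed by tumour. Gzmb+ Cd8+ T cells held 58.1, 58.6, 36.1, 36.7, 14.8 and 8.84%, Cd44+ Cd4+ T cells 8.28, 9.46, 13.6, 14.2, 32.6 and 9.33% and Foxp3+ Cd4+ T cells 5.67, 4.44, 14.4, 12, 24.8 and 32.6%. In E, EM1, EM2 and EM3 the Gzmb+ Cd8+ subtype held the largest share, in M the Cd44+ Cd4+ subtype and in the parental tumour the Foxp3+ subtype. A share of this kind moves with the number of cells in a subtype as well as with the level per cell.

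CTLA-4 was highest in Foxp3+ Cd4+ T cells, at 2732.5, 2531.5, 3055, 2370.4, 1469 and 1469.6 CPM. The M and parental tumours were lowest with nearly equal values, and the M to E difference was -0.89 (95% interval -1.06 to -0.72) log2 units. Cd44+ Cd4+ T cells were at 1171, 1000.2, 1368, 1001, 575 and 746 CPM, and again M was lowest, with an M to E difference of -1.01 (95% interval -1.23 to -0.80). The log2 ratio of the Foxp3+ to the Cd44+ subtype varied little, with a median of 1.23 and a range of 0.97 to 1.34 over the 6 tumours. In Gzmb+ Cd8+ T cells Ctla4 was at 915, 672.5, 909.8, 711 and 559.6 CPM from E to M, again lowest in M. NK cells of the subtype annotation, which are not T cells, did not follow this order, at 74.3, 103, 84.9, 202, 226 and 43.9 CPM, with M and EM3 highest. That NK class held 144, 193, 230, 95, 63 and 95 cells, against 88, 132, 131, 65, 49 and 38 in the broad NK class. In the broad NK class Ctla4 ran from 117 to 310 CPM, so the lowest values above belong to the wider class only. A Ctla4 UMI was found in 85.1, 76.3, 81.0, 84.6, 63.8 and 63.4% of Foxp3+ cells. Markers of T cells summed to 4049, 4990, 5021, 4148, 3713 and 4807 CPM in Foxp3+ cells. In Cd44+ Cd4+ T cells they summed to 5207, 5287, 5519, 4423, 4059 and 4790 CPM, and M was lowest in both. Their part in the differences of Ctla4, and of Icos below, was not tested.

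ICOS varied least between tumours among the receptors in Foxp3+ cells. Icos was there at 3360.0, 3131, 3640.3, 2873, 2647 and 2556 CPM, a range of 1.42-fold, and 13.4% of genes in these cells had a smaller one. The M to E difference was -0.34 (95% interval -0.48 to -0.21) log2 units. Cd44+ Cd4+ T cells had 2728, 2414, 2588, 1841, 1656 and 2191.5 CPM and Lef1+ Cd8+ T cells 1171.5, 678, 724, 953, 512 and 496 CPM, where the M to E difference was -1.18 (95% interval -1.57 to -0.80). A small subtype called Trdc+ DN T, named for a gamma-delta T cell receptor gene, reached 2841, 2522.5 and 3435 CPM in the EM1, EM2 and M tumours, the 3 with at least 20 such cells.

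CD28, the costimulatory receptor of resting T cells, was seen in both Cd8+ and all Cd4+ subtypes. In the Trdc+ DN T cells it had 5 UMIs in EM2 and 0 in EM1 and M, each with 22 to 25 such cells. Cd28 was at 618, 593, 570.5, 495, 471 and 438 CPM in Cd44+ Cd4+ T cells, its highest subtype by median. In Gzmb+ Cd8+ T cells it was at 232, 352, 433, 219 and 531 CPM from E to M. M was highest there, above E by 1.16 (95% interval 0.74 to 1.57) log2 units, in the same cells in which Pdcd1, Ctla4 and Icos were below E. In these cells T cell markers summed to 6208 CPM in E and 5216 CPM in M, and dendritic markers to 313 and 1271 CPM. The part of these markers in the differences was not tested. Cd28 in Foxp3+ cells was at 245, 330.4, 412, 273, 346 and 421 CPM, with E and EM3 lowest.

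**Figure D3:**
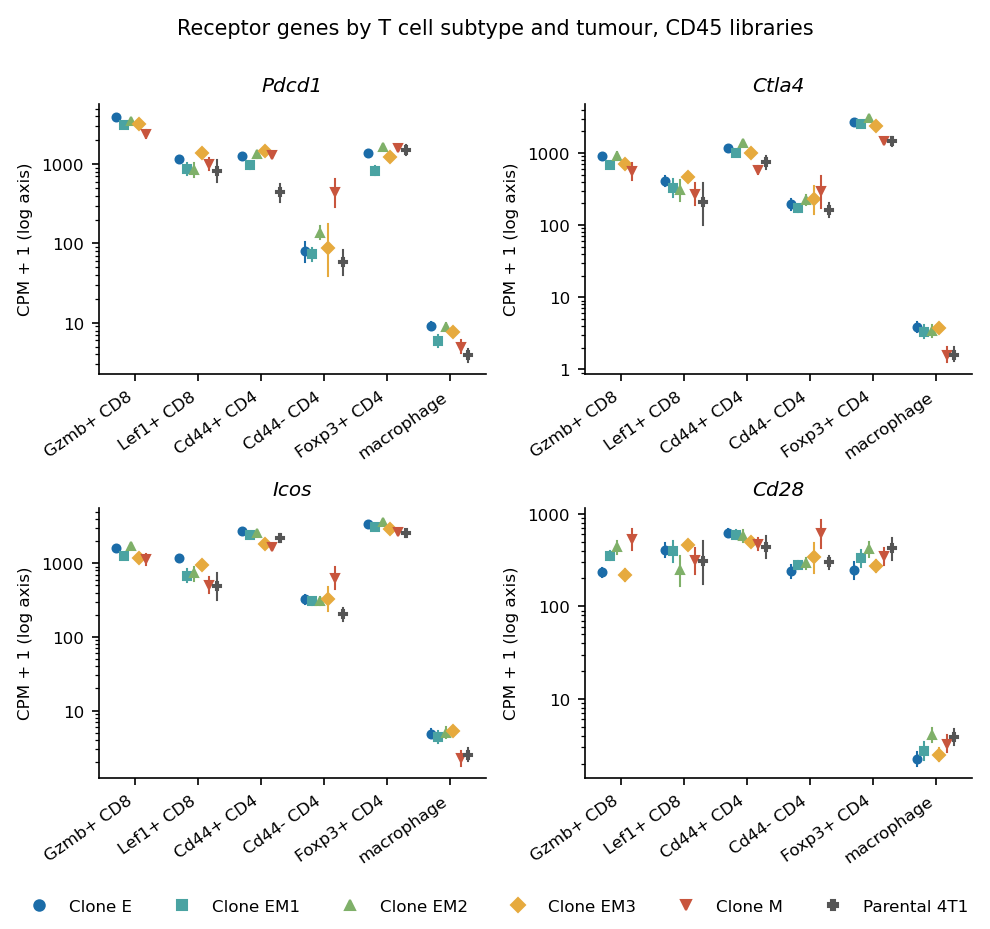
CPM + 1 on a log axis of the 4 receptor genes in 5 T cell subtypes and in macrophages of the CD45 libraries; points are tumours with at least 20 cells of the class, and bars are exact 95% Poisson intervals. All 4 genes lie far lower in macrophages than in T cells, Ctla4 peaks in Foxp3+ cells, and the M tumour is highest for Cd28 in Gzmb+ Cd8+ T cells at 531 CPM.

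These differences were read against all genes of the same class with at least 50 CPM in either tumour. The median log2 ratio of M to E over all such genes in macrophages was 0.17, so that the members' differences there are lower still relative to it. In macrophages 3.66% of 4208 genes were at least 2-fold lower in M than in E, as were 2 of the 4 members at that level, Cd274 and Pdcd1lg2. The rest of these 4 were Cd80 and Cd86, and members outside the 4 were under 50 CPM. Another 3.14% of genes were 2-fold higher, and 0 of 4 members. In Other Myeloid cells 4.39% of genes and 3 of 4 members, Cd274, Pdcd1lg2 and Cd80, were 2-fold lower, and 4.05% of genes and 0 of 4 members higher. In granulocytes 3.49% of genes and 1 of 4 members, Cd274, were 2-fold lower, and 1.13% of genes and 0 of 4 members higher.

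In dendritic cells 5.08% of genes and 2 of 7 members were 2-fold lower, and 1.6% of genes and 0 of 7 members higher. The 2 members were the T cell genes Ctla4 and Icos, at 11 and 15 UMIs in M, and both came below 2-fold with a pseudocount of 50 CPM. Markers of T cells in the dendritic cell class summed to 202.5, 258, 123, 145.5, 89.4 and 60.7 CPM, lower in M than in E, and their part in this was not tested. None of the ligand genes was 2-fold different between M and E in dendritic cells.

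The 5 T cell subtypes had 0 to 2 such members in each direction. In Foxp3+ Cd4+ T cells 0 of 7 members were 2-fold lower and 0 of 7 higher in M, against 3.6% and 2.67% of all genes. In Cd44+ Cd4+ T cells 2 of 6, Ctla4 and Cd80, were 2-fold lower against 2.83%, the latter at 6 UMIs in M, and 0 of 6 higher against 2.54%. In Cd44- Cd4+ T cells 2 of 5, Pdcd1 and Cd28, were 2-fold higher against 11% of all genes, and 0 of 5 lower against 10.3%. In Lef1+ Cd8+ T cells 2 of 7, Icos and Cd80, were lower against 5.77%, the latter at 2 UMIs in M, and 0 of 7 higher against 4.86%. In Gzmb+ Cd8+ T cells 1 of 6, Cd80, was lower against 6.5%, and 1 of 6, Cd28, higher against 6.07%. Cd28 in Gzmb+ cells came to 0.91 log2 units as a mean of per-cell CPM, and Ctla4 in Cd44+ Cd4+ cells to -0.97 with a pseudocount of 50 CPM.

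EM3 and E lie within 1 barcode set. In macrophages 0 of 4 members were 2-fold lower or higher in EM3, against 0.68% and 0.602% of genes, in dendritic cells 0 of 7 against 0.489% and 0.612%, and in granulocytes 0 of 3 against 0.548% and 0.205%. Over all 6 tumours, a ratio of highest to lowest CPM + 10 of at least 4 was found in 0.991% of genes in macrophages and in 2 of 4 members, Cd274 and Pdcd1lg2. In Other Myeloid cells these were 1.58% of genes and 2 of 5 members, in granulocytes 0.858% and 0 of 8, and in dendritic cells 2.1% and 0 of 9.

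**Figure D4:**
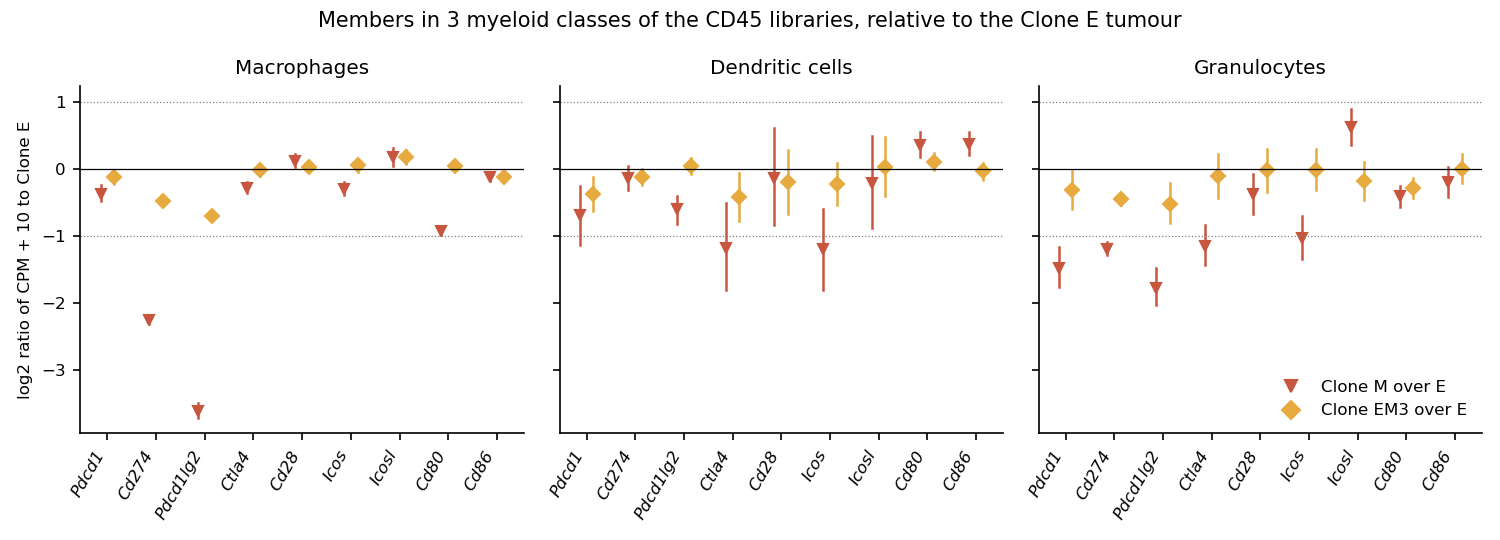
Log2 ratio of CPM + 10 of Clone M and Clone EM3 over Clone E for the 9 genes in macrophages, dendritic cells and granulocytes; bars are 95% intervals from counting error, and dotted lines mark 2-fold. Pdcd1lg2 at -3.60 and Cd274 at -2.25 in M macrophages stand far below the other members.

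Within a class, cells were split by a UMI of Mgl2, Arg1, Ccr7, Cxcr2 or Ikzf2, genes of known cell states that were chosen after the members' levels had been seen. Mgl2 encodes a lectin of alternatively activated macrophages. Pdcd1lg2 was at 274.5, 122, 57.8, 160.2, 12.6 and 20.4 CPM in macrophages with a Mgl2 UMI and 135, 57.7, 29.8, 83.1, 5.29 and 10.1 CPM in those without. It was thus about 2-fold higher with Mgl2 in 6 of 6 tumours, and the order of the tumours was the same in both groups of cells. Cells with a Mgl2 UMI were also deeper, at median depths of 8552, 6192, 6453, 10017, 9696 and 8149 UMIs against 5086, 4879, 4621, 6381, 6914 and 5334. The difference in Cd274 was smaller and had the other direction, at 485.5, 276, 267, 359, 104 and 142 CPM with and 603, 299.9, 303, 417, 109 and 188 CPM without Mgl2, with overlapping intervals in M.

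Arg1, which encodes an arginine-degrading enzyme, separated Cd274 less evenly. Macrophages with an Arg1 UMI had Cd274 at 549.5, 289.7, 277, 386, 111 and 174 CPM and those without at 584, 289.5, 336, 530.5, 101 and 161 CPM. The cells without Arg1 were higher in E, EM2 and EM3, and the intervals of the other 3 overlapped. Pdcd1lg2 was higher with an Arg1 UMI in 6 of 6 tumours by value, at 202.6 against 122.2 CPM in E and 7.45 against 5.15 CPM in M. Its intervals overlapped in M and the parental tumour. In dendritic cells, Ccr7, the chemokine receptor of mature migratory cells, marked higher Pdcd1lg2 in 6 of 6 tumours, at 731, 508, 558, 724, 421 and 547 CPM with and 377, 201, 195, 389, 344 and 286 CPM without. The intervals of M overlapped, and those of the other 5 tumours did not. Cd274, Cd80 and Cd86 were likewise higher with a Ccr7 UMI in 6 of 6 tumours by value. The intervals of all 3 genes overlapped in the parental tumour, as did those of Cd80 and Cd86 in EM1 and of Cd86 in EM2. In E, Cd274, Cd80 and Cd86 were at 664, 563 and 584 CPM with and 550, 333 and 381 CPM without. Icosl had no common direction over the tumours.

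Granulocytes were split by Cxcr2, the chemokine receptor of mature circulating neutrophils. Cd274 was at 519, 387, 203, 373, 185 and 157.5 CPM with a Cxcr2 UMI and 968, 890.3, 544, 749, 433.4 and 405 CPM without, so that cells without one were higher in each of the 6 tumours. Those cells were the shallower ones, at median depths of 940.0, 636, 607, 1050.0, 873 and 601 UMIs. Cd80 in granulocytes showed no such difference, at 184, 152.5, 112, 148, 142 and 143 CPM with and 191, 154, 92.8, 157, 133 and 126 CPM without. In Foxp3+ cells split by Ikzf2 (Helios), Ctla4 was at 2733, 2356, 2866.5, 2375, 1391 and 1560.0 CPM with and 2731, 3041, 4044, 2336.5, 1768 and 1236 CPM without, with no common direction over the tumours. Pdcd1 was at 1413, 894, 1731, 1265, 1685 and 1549 CPM with and 1084, 629, 1195, 1068, 1294 and 1455 CPM without Ikzf2, higher with it in 6 of 6 tumours by value, with overlapping intervals in each.

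**Figure D5:**
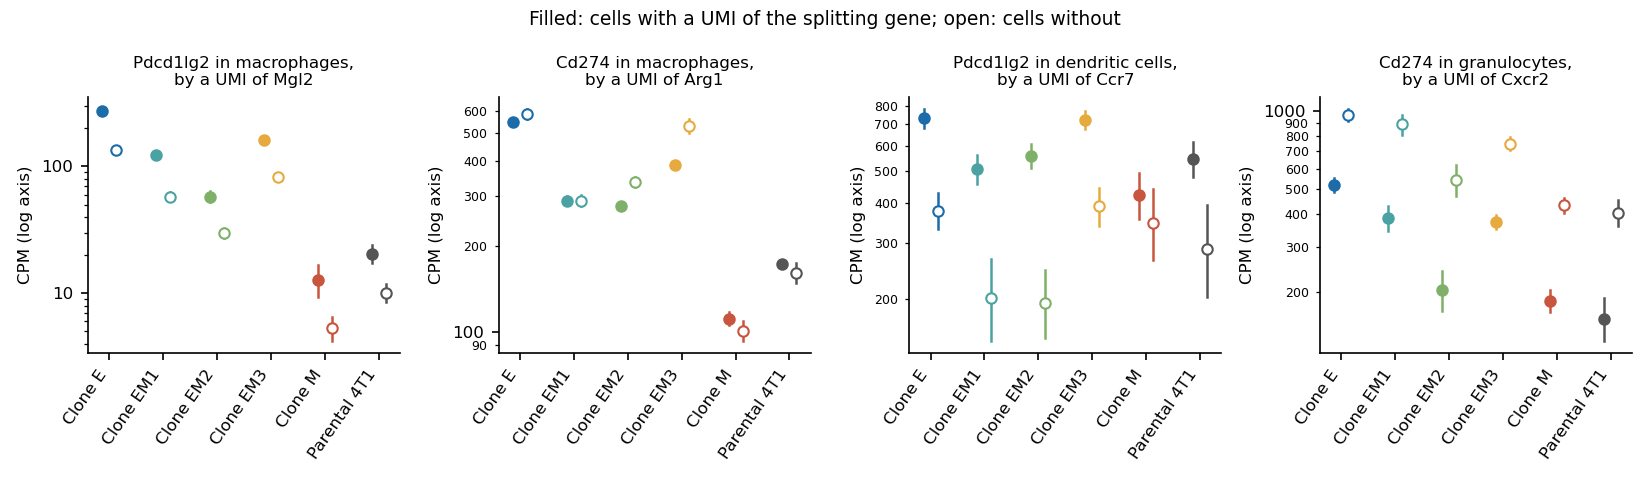
CPM on a log axis in cells with (filled) and without (open) a UMI of a second gene, for the 6 tumours of the CD45 libraries; bars are exact 95% Poisson intervals. Pdcd1lg2 is higher with Mgl2 in macrophages and with Ccr7 in dendritic cells, and Cd274 is lower with Cxcr2 in granulocytes, in all 6 tumours; for Ccr7 the bars of M overlap.

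The 2 PD-1 ligands were also seen together in single cells. Among macrophages with a Cd274 UMI, 38.0, 24.7, 13.4, 32.1, 3.69 and 6.89% held a Pdcd1lg2 UMI, against 16.2, 14.8, 5.81, 12.6, 2.01 and 4.41% of the others. Deeper cells hold more UMIs of every gene, so cells were also compared within 4 bins of UMI depth, and the share was higher with Cd274 in 4 of 4 bins in each tumour. The share of macrophages with a Cd86 UMI was likewise higher with Cd80 in 4 of 4 bins in each tumour. The result was thus not particular to the PD-1 ligands, and the part of depth differences left within a bin was not tested. In dendritic cells the shares were 74.2, 63.0, 61.6, 76.2, 61.5 and 59.3% against 40.0, 28.6, 31.6, 26.5, 20 and 30.3%, higher in 4 of 4 bins in 5 tumours and in 3 of 4 in EM3. In EM3 the dendritic cells without a Cd274 UMI had a median of 1078 UMIs against 6268 in the others. For Pdcd1 and Ctla4 in Foxp3+ cells the shares were 86.6, 76.5, 82.3, 86.7, 65.6 and 54.4% of Pdcd1-positive and 83.1, 76.2, 79.0, 81.6, 60.8 and 77.8% of other cells with a Ctla4 UMI, higher in Pdcd1-positive cells in 5 tumours, though in only 1 to 3 of 4 bins of depth, and lower in the parental tumour, with 0 of 4 bins higher. In Cd44+ Cd4+ T cells they were 59.7, 54.7, 54.1, 54.6, 40.8 and 61.1% against 52.2, 38.6, 46.3, 37.8, 30.7 and 32.3%, higher with Pdcd1 in 6 of 6 tumours, and in 4 of 4 bins of depth in EM1, EM3 and M, 3 of 4 in EM2 and the parental tumour and 2 of 4 in E. From E to M, the shares in Gzmb+ Cd8+ T cells were 71.4, 49.0, 61.2, 63.6 and 48.9% against 77.8, 35.7, 36.8, 33.3 and 43.75%. They were lower with Pdcd1 in E and higher in EM1, EM2, EM3 and M.

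Ligand and receptor UMIs were set against each other in each CD45 library. The ratio depends on how well each RNA is detected, so it is read only across tumours. It also moves with the numbers of myeloid and T cells, and the CD45 libraries held 683 to 3027 T cells. There were 2.89, 1.62, 2.99, 3.05, 2.34 and 7.94 Cd274 UMIs per Pdcd1 UMI and 0.982, 0.439, 0.511, 0.908, 0.212 and 0.993 Pdcd1lg2 UMIs per Pdcd1 UMI. In the Total libraries these values were 1.12, 1.57, 3.09, 3.15, 2.28 and 6.92, and 0.290, 0.309, 0.424, 0.811, 0.189 and 0.828. The parental tumour had the highest Cd274 to Pdcd1 ratio and M the lowest Pdcd1lg2 to Pdcd1 ratio in both kinds of library, whereas the lowest Cd274 to Pdcd1 ratio was that of EM1 in the CD45 and of E in the Total libraries. E moved most between the libraries, over 2-fold in both of these ratios. For Cd80 and Cd86 per UMI of Ctla4 and Cd28 the values were 4.20, 3.47, 4.19, 4.53, 6.71 and 13.4, and for Icosl per Icos 0.0802, 0.0984, 0.0997, 0.108, 0.25 and 0.275, both highest in the parental tumour, followed by M, as in the Total libraries.

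Across the 6 tumours, 4 relations between ligand and receptor cells were examined by exact two-sided permutation tests with Benjamini-Hochberg adjustment over the 4, and none passed 0.05. Cd274 in macrophages against Pdcd1 in Gzmb+ Cd8+ T cells, with the parental value from 8 cells, gave r = 0.46 (exact p = 0.361, adjusted 0.722) and rho = 0.37 (exact p = 0.497). Without the E and M tumours r was -0.87. Without the parental tumour alone, a choice made after the data had been seen, r was 0.94 over 5 tumours and was not tested. The relation thus rests on single tumours, the 8 parental cells among them. Cd274 in macrophages against Ifng, the interferon-gamma gene, in T and NK cells gave r = 0.23 (exact p = 0.65, adjusted 0.786) and rho = 0.20 (exact p = 0.714), and r = 0.59 without E and M. Cd86 in dendritic cells against Ctla4 in Foxp3+ cells gave r = -0.52 (exact p = 0.308, adjusted 0.722) and rho = -0.49 (exact p = 0.356), and r = -0.75 without E and EM3. Icosl in B cells against Icos in Foxp3+ cells gave r = -0.17 (exact p = 0.786, adjusted 0.786) and rho = -0.43 (exact p = 0.419), and r = 0.04 without EM3 and the parental tumour. The B cells of this relation include plasma cells and cells called B/T Hybrid. In EM1 plasma cells held 671496 of the 1297325 UMIs of the broad B class, and their part in the relation was not tested. With 6 tumours in 4 barcode sets, relations within a set could not be computed.

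Other genes of the pathway were read from 3 lists: PD-L1 regulators, further B7 and CD28 family genes with their partners, and receptor signalling genes. In macrophages, 0 of 6 PD-L1 regulators with at least 50 CPM were 2-fold different in M, against 3.66% of all genes lower and 3.14% higher, with a median log2 ratio of -0.42 against 0.17 for all genes. Irf1, an interferon-induced factor of the same list that was under 50 CPM in both E and M, was at 38.3, 125, 85.9, 67.5, 45.6 and 26.7 CPM, so that its highest tumour was EM1 and not E. Ifngr1, a chain of the interferon-gamma receptor, was at 316, 254, 329, 378, 221 and 369 CPM, with M lowest, whereas its partner chain Ifngr2 was at 124, 212.5, 216, 151, 241 and 209 CPM, with M highest and E lowest. Jak2 of the same list was at 133, 97.9, 84.2, 91.2, 69.8 and 61.2 CPM, highest in E and lowest in the parental tumour. Cmtm6, also of this list, was highest in E at 196 CPM and lowest in M at 152 CPM.

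Ifng, the interferon-gamma gene, in Cd44+ Cd4+ T cells was at 148, 389, 15.8, 35.6, 95.1 and 30.8 CPM, highest in EM1 and lowest in EM2. Between EM1 and EM2, Cd274 overlapped in macrophages and was lower in EM2 in granulocytes. A part of Ifng in the Cd274 levels was not tested. Of the other B7 and CD28 family genes and their partners, 1 of 6 reached 50 CPM in macrophages of E or M. That gene was Vsir (VISTA), an inhibitory member of the family, at 203, 305, 271.5, 259, 328 and 310.1 CPM in macrophages and 648, 589, 468.5, 579, 598 and 457 CPM in granulocytes. It was lowest in the E macrophages, the reverse of Cd274 and Pdcd1lg2. Of 12 receptor signalling genes, all 12 reached 50 CPM in E or M in Foxp3+ cells, 1 was 2-fold lower in M (3.6% of all genes were) and 0 were higher, with a median log2 ratio of -0.24 against -0.03 for all genes. The gene that was lower, Prkcq, encodes a kinase downstream of CD28, and stood at 53.5, 69.1, 47.9, 46.8, 11.3 and 53.6 CPM, the M value on 3 UMIs.

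Over 84 sums of cells by class and tumour, the 3 genes whose log2 level followed each member most closely were taken from 9170 genes. The sums share libraries and depth, and the correlations are given as descriptions. Pdcd1 went with Cd3g (r = 0.93), Thy1 (0.93) and Icos (0.93), and Ctla4 with Icos (0.96), Thy1 (0.95) and Tnfrsf18 (0.95). Icos went with Thy1 (0.96), Ctla4 (0.96) and Gata3 (0.96), and Cd28 with Sh2d1a (0.93), Spn (0.92) and Cd6 (0.91), most of them known from T cells. Pdcd1lg2 went with Cst3 (0.86), a protease inhibitor gene abundant in dendritic cells, then Mgl2 (0.84) and Cd36 (0.84). Cd274 went with Lilr4b (0.72), Ptgs2 (0.70) and Il1b (0.69), the last 2 encoding enzymes and cytokines of inflammation. Cd86 went with the MHC class II genes H2-Eb1 (0.81), H2-Ab1 (0.80) and H2-Aa (0.80), Icosl with Fcrl1 (0.71), Fcer2a (0.69) and Ciita (0.69), genes of B cells and antigen presentation, and Cd80 with Nod2 (0.77), Nrg1 (0.77) and Atox1 (0.75).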

How the data were processed

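Single cells of 6 tumours were measured in 12 libraries. Both a fixed-RNA preparation kit and Single Cell 3' v3.1 reagents are named in the labels' protocols, so whether probes or transcript ends were read is unsettled, and levels are compared only within a gene. The authors deposited whole UMI counts per gene and cell, made with Cell Ranger and build mm10 per the submitters' processing notes; versions and cell filters are not given in the sources used here. The mitochondrial share of each cell, deposited as a percent and as a fraction per the file headers, was read but entered no result. Cell classes are the authors' deposited annotation.

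Doublets were called with a Scrublet-type score at 1 limit for all libraries, with 2 simulated pairs per cell, 2000 variable genes and 30 components. This removed 3646 of 115612 cells (2.05 to 4.39% per library). In a test on simulated data in the EM1 CD45 library it found 48.6% of 325 pairs of 2 classes, so some doublets remain. Counts were summed per class and library and expressed as CPM. Ratios were taken on log2(CPM + 10), and intervals are exact at 95% and cover counting error only. PCR and capture differences between libraries are not in them. In simulated sums with counting error only, 100 genes per class were lowered 4-fold, among 3555 genes tested in macrophages and 4856 in Foxp3+ cells. Of the lowered genes, 100% were called in macrophages and 92% in Foxp3+ cells, called meaning at least 2-fold.

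The 9 genes and the marker and pathway lists were chosen with earlier results of these data known. Named were all 9 members, at most 4 genes of each pathway list with the highest level or largest range, and the 3 genes most correlated with each member. Jak2 and Cmtm6, and the genes used to split cells, were added after the levels had been seen. Results for 1 of the pathway genes are not reported here. Alternatives were kept doublets, a 650-gene minimum, another denominator, per-cell means, pseudocounts of 1 and 50, the Total libraries and marker-positive cells. Computation used Python 3.11.15, numpy 2.4.6, scipy 1.17.1, pandas 2.3.3, scikit-learn 1.9.0, statsmodels 0.14.6 and matplotlib 3.10.9.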

Additional observations from a re-analysis of the deposited data

How the results depend on the processing

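Beside the results below, 115 M to E or EM3 to E differences with at least 10 UMIs in both tumours were recomputed. Of 14 at or above 2-fold, recomputed 84 times, 0 turned sign and 11 values from 8 differences came below 2-fold: Ctla4 and Icos in dendritic cells, Pdcd1, Pdcd1lg2, Ctla4 and Icos in granulocytes, Cd28 in Gzmb+ Cd8+ and Ctla4 in Cd44+ Cd4+ T cells. Differences on fewer UMIs were not recomputed. Of 101 smaller differences recomputed 606 times, 24 values turned sign and 4 differences reached 2-fold in some setting. For Cd274 in macrophages, M over E (-2.25) was -2.36 without the 50 most abundant genes in the denominator, -2.09 as a mean of per-cell CPM, -2.34 and -1.93 with pseudocounts of 1 and 50 CPM, and -2.38 in the Total libraries. EM3 over E (-0.48) was -0.52 with that denominator, -0.44 as a per-cell mean, -0.44 with a pseudocount of 50 and -0.84 in the Total libraries. For Pdcd1lg2 in macrophages, in settings added after the data had been seen, M over E (-3.60) was -3.86, -3.21, -4.65 and -2.10 in the same first 4 settings and -3.43 in the Total libraries. Pseudocounts move this value by construction, and for the other settings the cause was not tested. The differences of Cd86 (0.38) and Cd80 (0.36) in dendritic cells were 0.15 and 0.022 in the Total libraries; the cause was not tested. The median log2 ratio of Cd274 in macrophages to tumour cells (3.32) was 4.02 and 2.32 with pseudocounts of 1 and 50. Pdcd1 in Gzmb+ Cd8+ T cells stayed between -0.81 and -0.69, and Ctla4 in Foxp3+ cells between -0.94 and -0.81. Without the parental tumour, a setting added after the data had been seen, the correlation over tumours turned from 0.23 to -0.086 for Cd274 in macrophages with Ifng and from -0.17 to 0.34 for Icosl with Icos; the cause was not tested.

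No paired analysis was possible because each group holds 1 tumour, and for the same reason there was no replicate to leave out. Depth limits the M values in T cells, with 63 Gzmb+ Cd8+, 67 Lef1+ Cd8+ and 41 Cd44- Cd4+ cells, and all values that rest on 3 UMIs or fewer.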
